A study of Homo sapiens with 4 samples.

Results

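The 43 genes described here repair broken, crosslinked or mispaired DNA outside the replication fork. They were taken by symbol from the deposited expression table of 60612 genes, and all 43 were found in it. They fall into 8 roles: 11 genes of homologous recombination, 4 of the MRN complex and end resection, 11 of the Fanconi anemia pathway, 3 of mismatch repair, 4 damage-signalling kinases, 4 of non-homologous end joining, 3 of base excision and single-strand break repair, and 3 of nucleotide excision repair. The study sequenced RNA of NCI-N87, a human gastric carcinoma line that has ERBB2 amplified. Cells with PLVX-IRES-Puro-ZSCAN18, a vector for the SCAN-type zinc finger protein ZSCAN18 that also gives resistance to puromycin, make up 2 libraries, and cells with the empty vector PLVX-IRES-Puro the other 2. Transfection took 24 hours, puromycin selection followed for 4 days, and RNA was harvested at 5 days in both groups. The labels do not tie the libraries to separate cultures, so the spread behind every p-value may be technical, and the comparison of ZSCAN18 with the empty vector is the only one in the series. In bulk RNA, fewer cells that transcribe a gene and less RNA per cell cannot be told apart.

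Double-strand breaks are repaired by joining the ends directly or by recombination with the sister chromatid, which needs the ends to be trimmed first and is used after the DNA has been copied. The Fanconi pathway cuts out crosslinks between the DNA strands and hands the resulting break to recombination. Mismatch and excision repair replace mispaired or damaged bases, and the kinases ATM and ATR signal the damage to the cell cycle through CHEK2 and CHEK1. Many recombination and Fanconi genes are transcribed most in the S and G2 phases, so their RNA in a culture also follows how many cells are dividing.

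Values are FPKM, fragments scaled to transcript length and to the depth of the library. Depths, estimated from the smallest steps of the values, lay between about 23300000 and 24600000 fragments, and the counting error of a member at the lowest depth lay between 0.971% and 10.6% of its value, with a median of 4.31%. ZSCAN18 was at 116 and 112 FPKM in the ZSCAN18 libraries, whose columns were assigned by elimination, and at 0.108 and 0.144 FPKM in the empty vector libraries (log2 fold change 6.67, SE 0.059, adjusted p = 4.13e-04 in limma). The epithelial markers EPCAM, KRT8, KRT18, KRT19, CDH1 and ERBB2 were above 34 FPKM in all 4 libraries. Of these 6 markers KRT18 fell to 675 and 682 FPKM with ZSCAN18, against 893 and 887 FPKM with the empty vector (log2 fold change -0.39, adjusted p = 0.0408 in limma), a call that ended, as every lower call did, when any 1 library was left out. EPCAM, KRT8 and ERBB2 lay wholly below the empty vector libraries (-0.10, -0.43 and -0.21) without passing. By contrast, PDGFRB, PECAM1, VWF, PTPRC and CD3E, of fibroblasts, endothelium and leukocytes, were below 0.2 FPKM. The fibroblast collagens COL1A1 and COL1A2 were at 0.182 to 1.46 FPKM, and CD68, a macrophage marker that other cells also express, was at 2.26 and 2.71 FPKM with ZSCAN18 and at 4.22 and 4.53 FPKM with the empty vector; their part in the results was not tested.

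None of the 43 repair genes passed the gene test, so the account that follows gives levels and directions. Genes were tested with limma on log2(FPKM + 1), where differences of low genes come out smaller than on the plain scale, with a Benjamini-Hochberg adjusted p under 0.05 over 11822 tested genes as the threshold. Of all tested genes, 1.77% passed, and 0 of 43 members did. That is 0 members lower with ZSCAN18, beside 0.973% of all tested genes, and 0 higher, beside 0.795%. Without adjustment, limma's p was under 0.05 in 12 members (27.9%), close to the 26.8% of all tested genes; the adjusted p of the members in limma ran from 0.0684 for EXO1 to 0.928 for ATR. The direction was less even than in the transcriptome: 33 of 43 members (76.7%) had a negative fold change, against 42.9% of all tested genes. Of the 12 members with an unadjusted p under 0.05 in limma, 11 were lower with ZSCAN18 and LIG4 was higher. Of the 3174 tested genes with such a p in limma, 1295 were lower and 1879 were higher. These are 11.0% and 15.9% of all tested genes. The median log2 fold change of the members was -0.10, and that of all tested genes was 0.04. Both ZSCAN18 libraries lay below both empty vector libraries in 22 members (51.2%), against 24.4% of all tested genes, and above them in 5 (11.6%), against 35.8%. All 43 members passed the filter of an FPKM of at least 1 in 2 libraries; ATM passed it only through its ZSCAN18 libraries. None of the members was marked significant in the authors' deposited table, where 0.845% of all 60612 listed genes were. That share is not over the tested genes, since 30324 of the listed genes had no signal in any library. The smallest q-value among the members there was 0.171, for BRCA1.

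**Figure D1:**
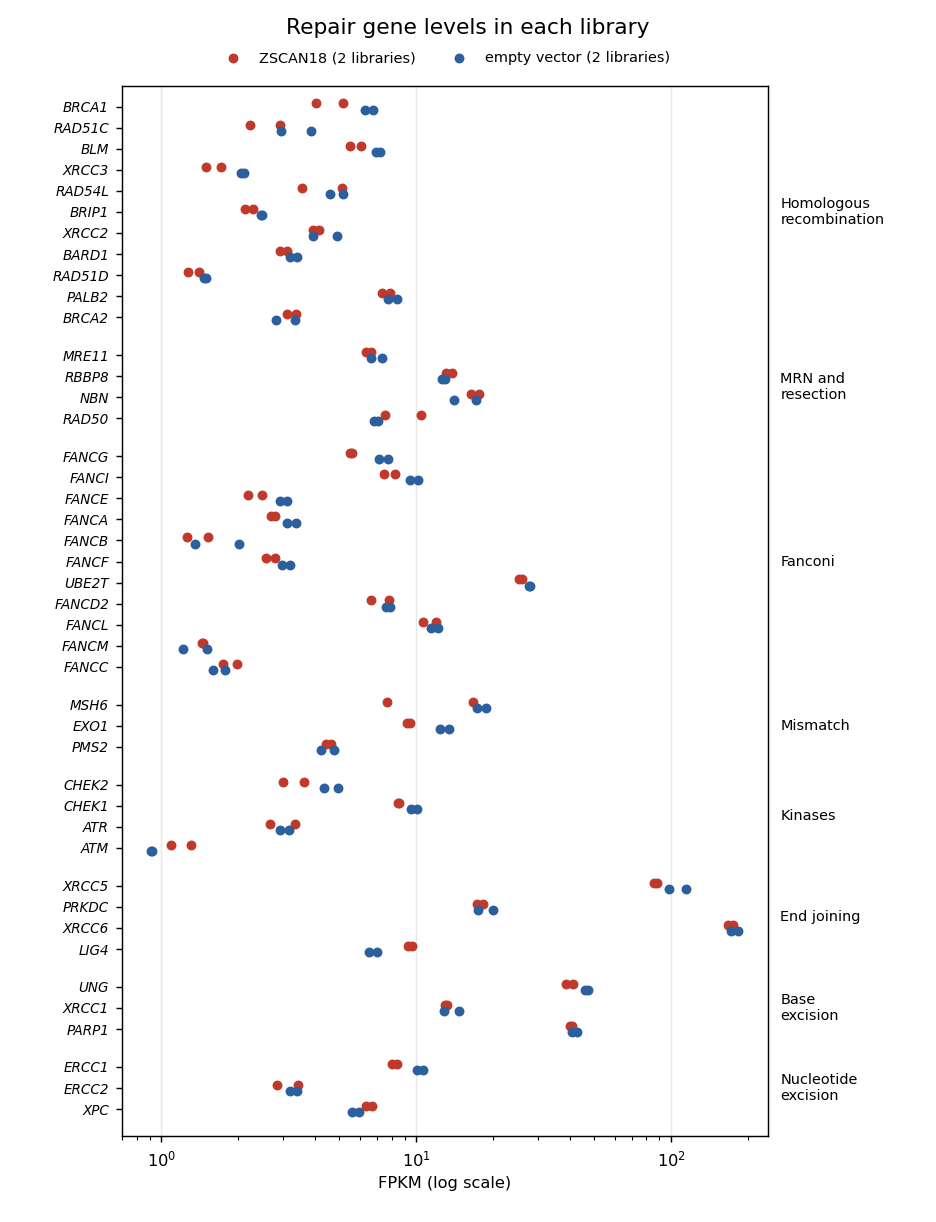
FPKM on a log scale of the 43 repair genes in each of the 2 ZSCAN18 (red) and 2 empty vector (blue) libraries, grouped by role and ordered by fold change within a role. Levels spanned ATM at about 1 FPKM to XRCC6 near 174, and MSH6 and RAD50 had ZSCAN18 libraries that stood apart from each other.

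Levels among the members were spread over 2 orders of magnitude. XRCC6 and XRCC5, which form the Ku ring that holds broken ends, had the highest mean levels over the 4 libraries, 174 and 96.5 FPKM. Next came UNG at 43.3 FPKM, PARP1 at 41.1, UBE2T at 26.7, PRKDC at 18.2 and NBN at 16.3. The lowest were ATM at 1.06 FPKM, FANCM at 1.41, RAD51D at 1.41, FANCB at 1.54, FANCC at 1.77 and XRCC3 at 1.84. By role, the median level was 57.4 FPKM for end joining and 41.1 FPKM for base excision repair, against 3.16 FPKM for recombination and 2.99 FPKM for the Fanconi pathway. The fold change had little relation to the level across the members (Spearman rho -0.05 over 43 genes, which share the same 4 libraries).

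The 11 homologous recombination members leaned low with ZSCAN18: the fold change was negative in 10 of them, with a median of -0.11, and 0 passed the test. BRCA1 (ENSG00000012048, chromosome 17, 43044295 to 43170245, minus strand, in GRCh38 as all positions here), which directs breaks toward recombination and works with BARD1 as a ubiquitin ligase, was at 4.03 and 5.18 FPKM in the ZSCAN18 libraries and at 6.78 and 6.27 FPKM in the empty vector libraries. Both ZSCAN18 values lay below both empty vector values, by a log2 fold change of -0.43 (SE 0.126, adjusted p = 0.142 in limma), and the gap was -0.28 without the first ZSCAN18 library. BLM, the helicase that takes recombination intermediates apart, was at 5.52 and 6.07 FPKM with ZSCAN18 and at 7.18 and 6.97 FPKM with the empty vector (log2 fold change -0.25, SE 0.074, adjusted p = 0.144 in limma). XRCC3 and RAD51C, which form a complex with each other, had log2 fold changes of -0.25 and -0.30. Their groups did not overlap, in RAD51C only narrowly (2.91 FPKM in the higher ZSCAN18 library and 2.94 in the lower empty vector library). Leaving out the first ZSCAN18 library gave -0.16 for RAD51C, and leaving out the first empty vector library gave -0.15. RAD51D, at -0.09, and XRCC2, at -0.10, also act in recombination. The BRCA1 partner BARD1 was at 2.93 and 3.11 FPKM with ZSCAN18 and at 3.21 and 3.40 FPKM with the empty vector, and PALB2, the bridge to BRCA2, had a log2 fold change of -0.07. The helicase BRIP1 stood at -0.11 and the chromatin motor RAD54L at -0.15 with overlapping groups. BRCA2, which acts at resected breaks, was the only positive gene of the role, at 3.39 and 3.11 FPKM with ZSCAN18 and 3.35 and 2.81 FPKM with the empty vector (log2 fold change 0.06).

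The 4 genes listed here under the MRN complex and end resection were mixed in direction. Of the 4, MRE11 was negative and RBBP8, RAD50 and NBN were positive, and 0 passed; the median was 0.09. RAD50, the coiled-coil ATPase of the MRN complex, was at 10.4 and 7.52 FPKM in the ZSCAN18 libraries and at 7.05 and 6.82 FPKM in the empty vector libraries (log2 fold change 0.31, SE 0.160, adjusted p = 0.291 in limma). The groups did not overlap, but the first ZSCAN18 library carried most of the gap, which was 0.10 without it. MRE11, the nuclease of the complex, was at 6.62 and 6.38 FPKM with ZSCAN18 and at 7.31 and 6.64 FPKM with the empty vector (log2 fold change -0.09, SE 0.075, adjusted p = 0.497 in limma). NBN, its regulatory subunit, had overlapping groups (0.12), and RBBP8, which starts resection and is also known as CtIP, stood at 0.07.

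**Figure D2:**
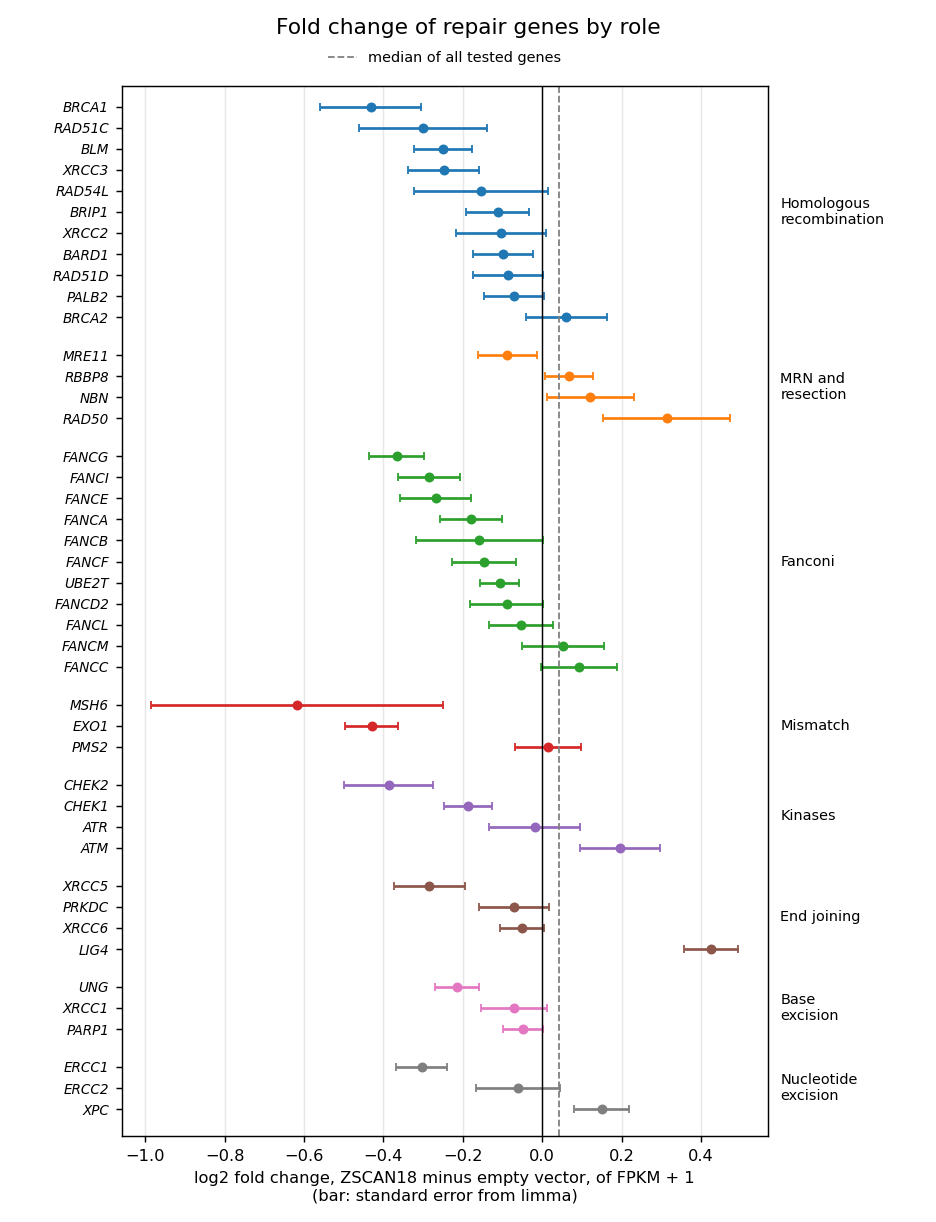
Log2 fold change of FPKM + 1 (ZSCAN18 minus empty vector) of the 43 repair genes with its standard error from limma, by role; the dashed line is the median of all tested genes at 0.04. Most recombination and Fanconi genes lie left of 0, LIG4 is the highest at 0.43, and MSH6 has the widest error.

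The Fanconi members leaned the same way, with 9 of 11 fold changes negative, a median of -0.15 and 0 genes past the test. The core complex, a ubiquitin ligase that is built of FANCA, FANCB, FANCC, FANCE, FANCF, FANCG, FANCL and FANCM with smaller partners, held the most separated member. FANCG (ENSG00000221829, chromosome 9, 35073835 to 35079942, minus strand) was at 5.49 and 5.60 FPKM in the ZSCAN18 libraries and at 7.14 and 7.74 FPKM in the empty vector libraries (log2 fold change -0.37, SE 0.070, adjusted p = 0.0827 in limma). FANCI, which forms with FANCD2 the clamp that the core complex ubiquitinates, was at 8.23 and 7.48 FPKM with ZSCAN18 and at 9.42 and 10.1 FPKM with the empty vector (log2 fold change -0.28, SE 0.078, adjusted p = 0.132 in limma). In both genes every ZSCAN18 library lay below every empty vector library, and the same held for FANCA (-0.18), FANCE (-0.27), FANCF (-0.15) and UBE2T (-0.11), the conjugating enzyme of the pathway. FANCD2 was at 7.81 and 6.67 FPKM with ZSCAN18 and at 7.86 and 7.63 FPKM with the empty vector, so its groups overlapped, unlike those of its partner. FANCB (-0.16) and FANCL, the subunit with the ligase activity (-0.05), overlapped too. FANCM, the translocase that anchors the complex on DNA, and FANCC were positive, at 0.05 and 0.09, also with overlap, and FANCM was at -0.0058 after quantile normalization.

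Mismatch repair was represented by 3 genes, 2 of them negative, and 0 passed. EXO1 (ENSG00000174371, chromosome 1, 241847967 to 241895148, plus strand), the exonuclease that removes the mispaired strand, was at 9.48 and 9.16 FPKM in the ZSCAN18 libraries and at 13.4 and 12.4 FPKM in the empty vector libraries. Its groups were well apart, with a log2 fold change of -0.43 (SE 0.067), and its adjusted p of 0.0684 in limma was the lowest of all members. MSH6 (ENSG00000116062, chromosome 2, 47695530 to 47806953, plus strand), a subunit of the complex that recognises single mispaired bases, was at 7.68 and 16.7 FPKM with ZSCAN18 and at 17.3 and 18.7 FPKM with the empty vector. The log2 fold change of MSH6, -0.62 (SE 0.367, adjusted p = 0.350 in limma), therefore rested on the first ZSCAN18 library, and without that library it was -0.11. PMS2, an endonuclease of the pathway, was at 4.43 and 4.64 FPKM with ZSCAN18 and at 4.75 and 4.22 FPKM with the empty vector (log2 fold change 0.02, which was -0.0214 after median-of-ratios scaling). The table also lists 6 PMS2 pseudogenes with a mean of at least 1 FPKM, so how reads were divided between PMS2 and these copies is uncertain.

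Among the 4 kinases 0 passed, and 3 had a negative fold change. CHEK2 (ENSG00000183765, chromosome 22, 28687743 to 28742422, minus strand) was at 3.0 and 3.63 FPKM in the ZSCAN18 libraries and at 4.92 and 4.34 FPKM in the empty vector libraries (log2 fold change -0.39, SE 0.112, adjusted p = 0.141 in limma). CHEK1, which ATR activates in S phase, was at 8.53 and 8.49 FPKM with ZSCAN18 and at 10.1 and 9.58 FPKM with the empty vector (log2 fold change -0.19, SE 0.061, adjusted p = 0.162 in limma). Both had every ZSCAN18 library below every empty vector library. ATR was at 3.35 and 2.68 FPKM with ZSCAN18 and at 2.93 and 3.17 FPKM with the empty vector, with overlap. ATM, at the edge of the filter, was at 1.3 and 1.09 FPKM with ZSCAN18 and at 0.911 and 0.918 FPKM with the empty vector (log2 fold change 0.20, adjusted p = 0.294 in limma).

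End joining held the highest fold change of all members. LIG4 (ENSG00000174405, chromosome 13, 108207439 to 108215535, minus strand), the ligase that seals the ends, was at 9.27 and 9.63 FPKM in the ZSCAN18 libraries and at 6.53 and 7.04 FPKM in the empty vector libraries (log2 fold change 0.43, SE 0.068). Its groups were clearly apart, but the adjusted p in limma was 0.0701. XRCC5, the larger Ku subunit, was at 87.7 and 85.9 FPKM with ZSCAN18 and at 97.8 and 115 FPKM with the empty vector (log2 fold change -0.28, SE 0.090, adjusted p = 0.159 in limma), and its gap was -0.17 without the second empty vector library. Its partner XRCC6 overlapped between the groups, at 175 and 168 FPKM with ZSCAN18 and 172 and 183 FPKM with the empty vector (log2 fold change -0.05, which was 0.1125 after quantile normalization). PRKDC, the kinase that Ku recruits, also overlapped (log2 fold change -0.07).

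Among the excision repair genes, the log2 fold changes furthest from 0 were those of ERCC1 (-0.30) and UNG (-0.21). Those of the others lay between -0.07 and 0.15. UNG, the glycosylase that removes uracil from DNA, was at 41.3 and 38.7 FPKM in the ZSCAN18 libraries and at 47.1 and 46.0 FPKM in the empty vector libraries (log2 fold change -0.21, SE 0.056, adjusted p = 0.123 in limma). PARP1, which senses strand breaks, was at 40.8 and 40.0 FPKM with ZSCAN18 and at 40.9 and 42.7 FPKM with the empty vector (log2 fold change -0.05, SE 0.050, adjusted p = 0.577 in limma), and XRCC1, the scaffold it recruits, was at -0.07 with overlap. In nucleotide excision repair, ERCC1 (ENSG00000012061, chromosome 19, 45407334 to 45478828, minus strand), a subunit of the nuclease that cuts beside the lesion, was at 8.42 and 8.0 FPKM with ZSCAN18 and at 10.1 and 10.6 FPKM with the empty vector (log2 fold change -0.30, SE 0.065, adjusted p = 0.0951 in limma). XPC, which recognises the distortion, lay the other way, at 6.70 and 6.35 FPKM with ZSCAN18 and 5.60 and 5.97 FPKM with the empty vector (log2 fold change 0.15, SE 0.070, adjusted p = 0.263 in limma). The helicase ERCC2 overlapped between the groups (-0.06).

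**Figure D3:**
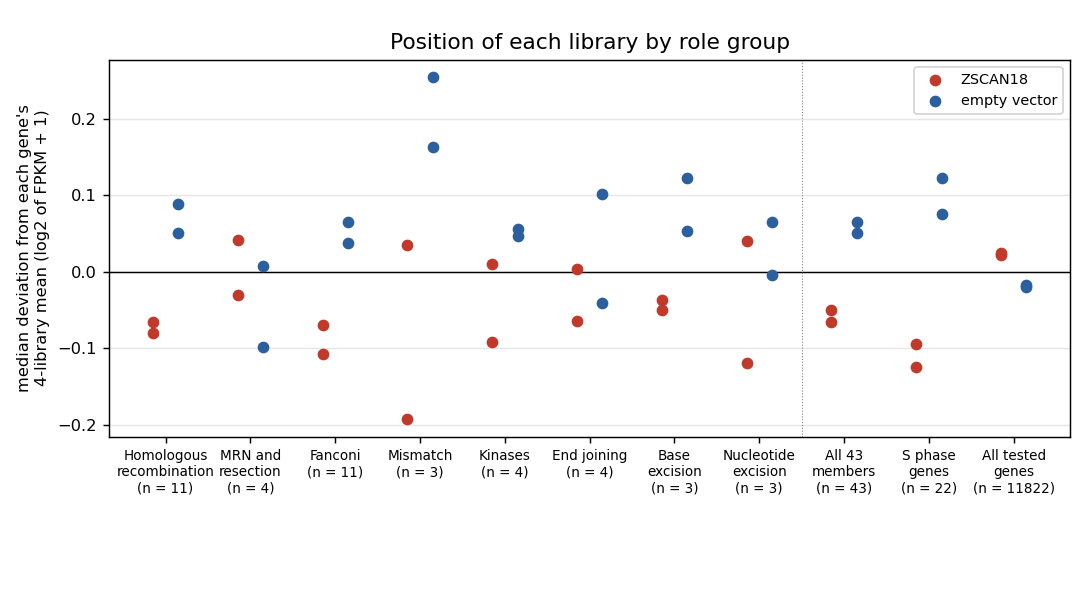
For each role, all members, the S phase genes and all tested genes, the median over genes of each library's deviation from the gene's own 4-library mean, on log2(FPKM + 1); red points are the 2 ZSCAN18 and blue points the 2 empty vector libraries. In recombination, the Fanconi pathway, mismatch repair, the kinases and base excision repair both ZSCAN18 libraries lie below both empty vector libraries; in the MRN group, end joining and nucleotide excision repair they overlap.

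Over all members, the ZSCAN18 libraries lay at -0.05 and -0.07 on this scale and the empty vector libraries at 0.07 and 0.05, so the replicates were close to each other. The median of the recombination and Fanconi genes together, 22 in number, was -0.13 with 19 negative, and that of the other 21 members was -0.06 with 14 negative. Of the recombination and Fanconi members 13 (59.1%) had ZSCAN18 libraries that lay wholly below the empty vector libraries, and 0 had them wholly above. Of the other members 9 (42.9%) lay below and 5 (23.8%) above. Among all tested genes 24.4% lay below and 35.8% above.

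Genes of S phase and proliferation were in the same direction in the same libraries. Of 22 such genes 20 had a negative fold change (90.9%, against 42.9% of all tested genes), with a median of -0.17. Of these 22 genes 0 passed the test in limma, while 9 (40.9%) had an unadjusted p under 0.05 in limma, against 26.8% of all tested genes. E2F1, which drives the transcription of S phase genes, was at 16.6 and 16.8 FPKM with ZSCAN18 and at 21.7 and 21.8 FPKM with the empty vector (log2 fold change -0.37, SE 0.050, adjusted p = 0.0604 in limma). E2F1 passed in limma with a minimum of 5 FPKM (0.0428) and after median-of-ratios scaling (0.0495). It did not pass at a pseudocount of 0.1 (0.0618), after quantile normalization (0.0658) or without the variance trend (0.0825). Nor did E2F1 pass with no filter (0.141) or with the replicate block (0.165). PCNA, the sliding clamp of the polymerases, was at 177 and 171 FPKM with ZSCAN18 and at 213 and 175 FPKM with the empty vector, with a log2 fold change of -0.15 (SE 0.107, adjusted p = 0.419 in limma). This value was 0.0119 after quantile normalization and -0.0126 without the first empty vector library. MKI67, a marker of dividing cells, was at 28.6 and 23.5 FPKM with ZSCAN18 and at 27.3 and 37.1 FPKM with the empty vector, so its groups overlapped (log2 fold change -0.28, SE 0.186, adjusted p = 0.389 in limma). Without the second ZSCAN18 library it was -0.15, and without the second empty vector library -0.07. The summed FPKM of the S phase list came to 830 and 819 in the ZSCAN18 libraries, against 934 and 922 in the empty vector libraries, and that of the 43 repair genes to 598 and 592 in the ZSCAN18 libraries, against 641 and 664 in the empty vector libraries. XRCC5 and XRCC6 make up a large share of the sum of the repair genes. Over all tested genes the summed FPKM was 290096 and 293067 in the ZSCAN18 libraries, against 309429 and 301334 in the empty vector libraries. The part of cell division in the levels of the repair genes was not tested.

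In a wider list of 90 other repair genes the share of negative fold changes was close to that of all genes. Of the 85 that passed the filter, 40 had a negative fold change (47.1%), near the 42.9% of all tested genes, and the median was 0.01. Both ZSCAN18 libraries lay below both empty vector libraries in 24 of the 85 (28.2%), against 24.4% of all tested genes. They lay above them in 21 (24.7%), against 35.8%. By role, the negative share ran from 33.3% in other Fanconi and other mismatch repair genes to 62.5% in 16 other base excision genes. The lean of the recombination and Fanconi members was not seen in the lists of other genes set beside them. Members and lists were chosen with earlier results of these data known, so this contrast only describes the lists. The recombination list also holds break-site genes such as TP53BP1. Of 25 other recombination and break-site genes 11 were negative (44.0%, median 0.02), and of 9 other Fanconi genes 3 were (33.3%, median 0.04). In this list 1 gene passed the test, lower with ZSCAN18, beside 1.77% of all tested genes. CENPX (ENSG00000169689, chromosome 17, 82018702 to 82024107, minus strand), a histone-fold protein that binds FANCM and also sits at the centromere, fell to 7.03 and 6.82 FPKM with ZSCAN18, against 12.1 and 12.2 FPKM with the empty vector (log2 fold change -0.73, SE 0.058, adjusted p = 0.0357 in limma). Its call in limma ended when any 1 library was left out (adjusted p 0.156 to 0.184) with no filter (0.114) and with the replicate block (0.145), and CENPX overlaps LRRC45 on the opposite strand, which had a log2 fold change of -0.63. PAXX, an accessory factor of end joining, was at 7.74 and 6.92 FPKM with ZSCAN18 and at 11.7 and 11.5 FPKM with the empty vector (log2 fold change -0.60, SE 0.075, adjusted p = 0.0563 in limma). RMI2, which works with BLM, was at 6.78 and 6.45 FPKM with ZSCAN18 and at 9.0 and 9.2 FPKM with the empty vector (log2 fold change -0.41, SE 0.062, adjusted p = 0.0677 in limma). NTHL1, a glycosylase for oxidised bases, was at 3.56 and 3.80 FPKM with ZSCAN18 and at 4.88 and 5.28 FPKM with the empty vector (log2 fold change -0.38, SE 0.077, adjusted p = 0.0897 in limma). In all of these every ZSCAN18 library lay below every empty vector library. The next genes were chosen after their values were seen and lay the other way. TP53BP1, which protects ends from resection and favours end joining, was at 6.58 and 5.89 FPKM with ZSCAN18 and at 4.75 and 4.59 FPKM with the empty vector (log2 fold change 0.35, adjusted p = 0.103 in limma), and TDP2, which frees ends blocked by a topoisomerase, stood at 0.29.

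**Figure D4:**
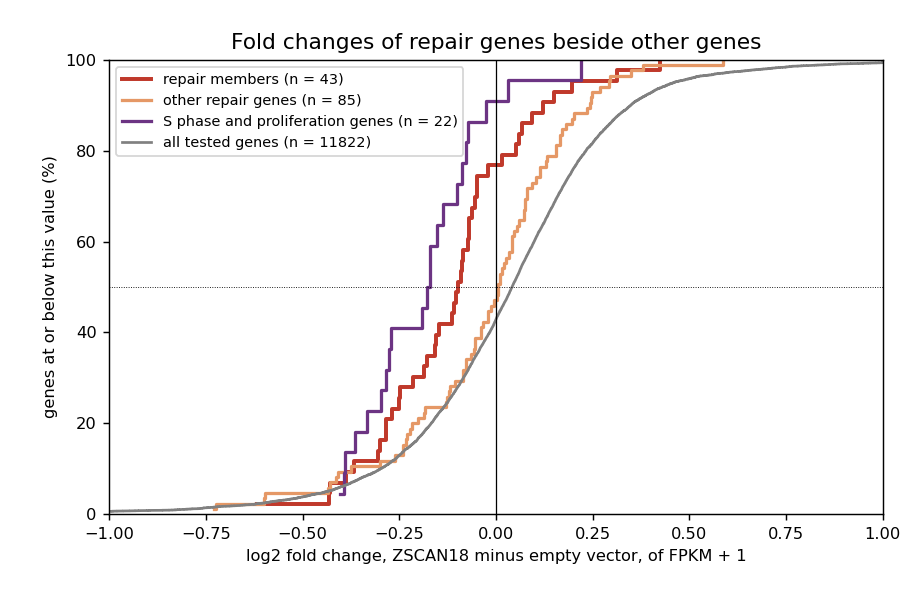
Cumulative share of genes against the log2 fold change of FPKM + 1 (ZSCAN18 minus empty vector) for the 43 repair members, 85 other repair genes, 22 S phase and proliferation genes and all 11822 tested genes. At its midpoint the curve of the members lies between that of the S phase genes and that of all genes, and the other repair genes lie near all genes.

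Transcript length moved with the fold change in this table. Over 10338 tested genes with a protein-coding transcript in the annotation, the Spearman rho between the longest transcript and the fold change was 0.25, and over the 43 members it was 0.28; genes share the same 4 libraries. Among members with a transcript of at most 4003 bases, the median of their lengths, 19 of 22 had a negative fold change, against 49.9% of all genes of that length. Among the longer members 14 of 21 were negative, against 31.2% of all genes of that length. The part of transcript length in the fold changes was not tested.

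Repair genes often start beside a gene on the opposite strand. Such a protein-coding neighbour, with its start within 1000 bases, was present for 16 of 43 members (37.2%) and for 18.7% of tested protein-coding genes. Of the 12 tested neighbours 4 had a negative fold change and 4 had the sign of their repair gene, and their median was 0.13. CHEK2 and HSCB, an iron-sulfur cluster chaperone, stood on opposite sides of 0. HSCB was at 4.91 and 4.82 FPKM in the ZSCAN18 libraries and at 3.56 and 3.16 FPKM in the empty vector libraries (log2 fold change 0.43, adjusted p = 0.0815 in limma), while CHEK2 stood at -0.39. BRCA1 spans 2 annotated starts with neighbours. NBR1, beside its upstream start, was at 20.3 and 18.5 FPKM with ZSCAN18 and at 13.2 and 13.5 FPKM with the empty vector (log2 fold change 0.51, adjusted p = 0.0581 in limma). NBR2, a long noncoding RNA beside its downstream start, was at 1.88 and 1.91 FPKM with ZSCAN18 and at 0.906 and 1.13 FPKM with the empty vector (log2 fold change 0.52, adjusted p = 0.0837 in limma), while BRCA1 stood at -0.43. The difference between a repair gene and its neighbour was not tested. The sources do not say whether reads were counted by strand, and 11 members overlap an expressed gene on the other strand, among them BRCA1, CHEK2, FANCA, FANCI, MSH6 and ERCC1, so their values may hold reads of that gene.

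**Figure D5:**
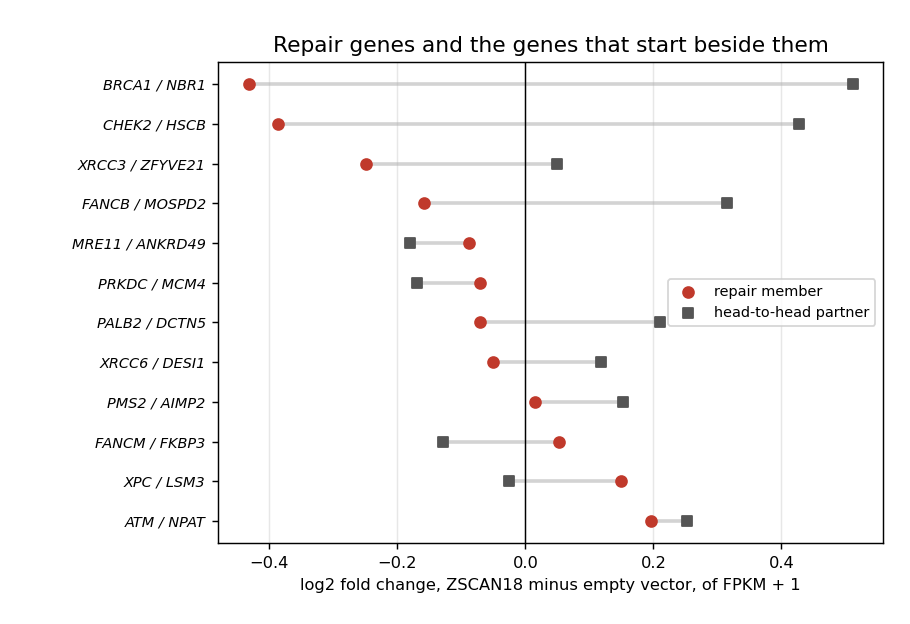
Log2 fold change of FPKM + 1 (ZSCAN18 minus empty vector) of the 12 repair genes (red circles) that have a tested protein-coding neighbour starting within 1000 bases on the opposite strand, and of that neighbour (grey squares). BRCA1 with NBR1 and CHEK2 with HSCB are the widest pairs, from -0.43 to 0.51 and from -0.39 to 0.43.

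The bases before 4 starts are shown because the first 2 are shared between genes that stood on opposite sides of 0, and the last 2 are of members with a negative fold change that hold a match to the E2F motif. They are the 250 bases upstream of the RefSeq start on GRCh38.p14, read on the strand of the gene, and the capitals mark CCAAT, searched on both strands, and the E2F motif, searched on both strands in the forms TTTCCCGC, TTTGGCGC, TTTCGCGC and TTTGCCGC.
BRCA1, chr17:43125365-43125614, minus strand: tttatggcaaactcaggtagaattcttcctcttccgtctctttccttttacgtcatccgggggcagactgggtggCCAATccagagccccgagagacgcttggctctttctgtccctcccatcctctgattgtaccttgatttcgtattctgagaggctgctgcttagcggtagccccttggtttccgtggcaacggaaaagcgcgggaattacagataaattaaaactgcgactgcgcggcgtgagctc
CHEK2, chr22:28741821-28742070, minus strand: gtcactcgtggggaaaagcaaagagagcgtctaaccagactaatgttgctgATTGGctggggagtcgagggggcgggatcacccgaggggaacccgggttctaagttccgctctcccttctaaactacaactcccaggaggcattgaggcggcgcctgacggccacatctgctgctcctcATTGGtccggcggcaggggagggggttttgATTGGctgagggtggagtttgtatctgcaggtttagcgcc
FANCA, chr16:89816648-89816897, minus strand: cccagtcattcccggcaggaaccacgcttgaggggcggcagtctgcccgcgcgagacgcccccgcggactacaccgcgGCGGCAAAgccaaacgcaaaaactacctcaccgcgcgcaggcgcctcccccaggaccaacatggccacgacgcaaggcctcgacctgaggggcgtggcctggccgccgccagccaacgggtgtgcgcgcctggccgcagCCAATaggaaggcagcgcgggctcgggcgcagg
UNG, chr12:109097922-109098171, plus strand: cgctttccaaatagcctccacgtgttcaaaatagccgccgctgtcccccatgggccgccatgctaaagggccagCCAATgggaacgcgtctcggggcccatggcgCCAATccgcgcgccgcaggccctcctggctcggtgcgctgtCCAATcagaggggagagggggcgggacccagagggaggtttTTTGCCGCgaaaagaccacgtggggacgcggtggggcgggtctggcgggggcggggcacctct
The start that the deposited table gives for NBR2 (43125551, plus strand) lies inside the BRCA1 window, and that of HSCB (28742039, plus strand) inside the CHEK2 window. The BRCA1 window holds 1 CCAAT match and the CHEK2 window 3, and neither holds an E2F match. The FANCA window holds 1 match to each, and the UNG window shown holds 1 E2F match and 3 CCAAT matches. The other RefSeq window of UNG and that of BRCA1 hold 0 matches to either motif.

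RefSeq windows were found for 39 of 43 members, 60 windows in all since some genes have several starts. CCAAT was present in 28 of the 60 windows (46.7%), against 33.3% of the windows of tested genes and 32.0% of all promoter windows. The E2F forms were present in 6 of 60 (10.0%), against 4.38% and 2.79%, and in 9 of 24 windows of the S phase genes (37.5%). The 6 windows belong to FANCA, FANCC, PMS2, UNG and XPC, of which 2 had a negative and 3 a positive fold change. PMS2 gave 2 of these windows, which overlap and hold the same match. An E2F form was present in 4.65% of the windows of members with a negative fold change. Among windows of members with a positive fold change the share was 23.5%, and the recombination members had 0. The NRF1 core GCATGCGC was present in 4 of 60 windows (6.67%), against 4.33% and 2.63%, and TTTGAA, the cell-cycle homology region, in 7 (11.7%), against 8.85% and 13.3%; both were searched on both strands, and these short motifs can overlap each other. The median GC content was 65.4% in the windows of the members and 64.8% in those of tested genes. A match only describes the letters in the window.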

How the data were processed

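RNA of NCI-N87 cells was isolated with Trizol for Illumina sequencing, per the labels' protocols. Tools named in the submitters' processing notes, with no role given, are HISAT2 2.0.4, StringTie 1.3.4d, FastQC 0.10.1, cutadapt 1.9, DESeq2 and edgeR 3.2.5. The authors deposited a single table; per the file headers it gives FPKM for each library beside a linear fold, a log2 fold, a p-value and a q-value for the comparison. The log2 fold deposited by the authors equals the log2 ratio of summed FPKM to within 0.001 in every gene. How the authors obtained their p-value column is not stated in any source used. In the deposited FPKM, 0.0001 means no signal. Titles of the empty vector samples head their columns. The remaining 2 FPKM columns bear no sample's title, so they went to ZSCAN18 by elimination and keep the columns' numbers. No source used names the build. Gene identifiers shared with GENCODE 29 (GRCh38) numbered 58394, and 99.67% of them began within 100 kb of their place in that release.

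Because the deposited FPKM are not counts, limma 3.58.1 (R 4.3.3) was run on log2(FPKM + 1) with group as the only term and a variance trend in eBayes (2.01 prior and 2 residual degrees of freedom), for genes at 1 FPKM or more in at least 2 libraries; p-values are two-sided. Whole reads were not recovered: 15.8 to 21.3% of low values in single-exon genes came within 0.02 of a whole number of fragments. Depths come from the most common step within a preset window and rest on it; errors quoted from them cover counting only. The smallest p of an exact permutation test on 2 against 2 libraries is 0.333. The test was checked on simulated data. The members and lists were chosen with earlier results of these data known. Full values were given for each member past the threshold, for the 2 members of each role with the smallest unadjusted p, for other repair genes past the threshold and the 4 of them with the smallest unadjusted p, and for ZSCAN18, MKI67, E2F1 and PCNA. Alternatives covered the pseudocount, the filter, the scaling, the variance trend, a replicate block and each library left out.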

Additional observations from a re-analysis of the deposited data

How the results depend on the processing

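In every alternative that kept all 4 libraries 0 members passed the gene test in limma. The number with an unadjusted p under 0.05 in limma ran from 8 (18.6%) with the replicate block to 14 (32.6%) after median-of-ratios scaling. The share of all tested genes was 22.2% and 26.1% in these settings. With a minimum of 5 FPKM 10 of 25 members (40.0%) had such a p in limma, against 32.5% of all tested genes. The number of negative members was 33, and 34 after median-of-ratios scaling and after quantile normalization; leaving out each library gave 30 to 35. With a minimum of 5 FPKM 25 members were tested and 20 were negative, because fewer genes passed that filter. The members' median of -0.10 became -0.12 at a pseudocount of 0.1, -0.13 after median-of-ratios scaling and -0.14 after quantile normalization, and lay between -0.12 and -0.10 without each library; the median of all tested genes was then 0.05, 0.01 and 0.01. The median of the S phase genes, -0.17, was -0.22 after median-of-ratios scaling and -0.24 to -0.15 without each library. Over all genes 209 passed (94 higher, 115 lower). This became 1 (1 and 0) with no filter, 370 (154 and 216) with a minimum of 5 FPKM, 99 (50 and 49) without the variance trend, and 1 (1 and 0) with the replicate block; 187 were lower after median-of-ratios scaling, beside 93 higher. Without each library 0 to 1 passed, 0 to 1 higher and 0 to 0 lower: 0 without either ZSCAN18 library and 1 without either empty vector library. Other repair genes that passed numbered 1, but 0 with no filter, 0 with the replicate block and 0 without any library, and 2 with a minimum of 5 FPKM, after median-of-ratios scaling and after quantile normalization (CENPX and PAXX). PMS2 changed sign to -0.0214 after median-of-ratios scaling and to -0.0362 after quantile normalization, which also turned FANCM to -0.0058, XRCC6 to 0.1125 and PCNA to 0.0119. Leaving out a library turned BRCA2 (-0.0358 to 0.1568), XRCC2 (-0.2313 to 0.0252), RAD54L (-0.3615 to 0.0531), NBN (-0.0091 to 0.2507), FANCB (-0.3371 to 0.0202), FANCD2 (-0.19 to 0.0102), FANCL (-0.1307 to 0.0239), FANCM (-0.0371 to 0.1412), PMS2 (-0.0543 to 0.0846), ATR (-0.1402 to 0.1014), PRKDC (-0.167 to 0.0246), XRCC1 (-0.1623 to 0.021) and ERCC2 (-0.1701 to 0.0466), all with overlapping groups. Where no construction shows it, the cause was not tested. Same-numbered libraries did not deviate together (correlation 0.034). This cannot show whether libraries were prepared in pairs, because which ZSCAN18 sample each ZSCAN18 column holds is not known. With the replicate block 8 members (18.6%) had an unadjusted p under 0.05 in limma, against 22.2% of all tested genes. By the estimated depth, counting error limits the precision most in FANCB, at 10.6% of its value.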
